A study of Mus musculus with 24 samples.

Results

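The RNAs described here are the transcripts of 7 mouse genes that carry small nucleolar RNAs (snoRNAs) in their introns: Gas5, Snhg1, Snhg3, Snhg5, Snhg6, Snhg8 and Snhg12. They were taken by Ensembl identifier from the count tables of 2 experiments, TET2 CLIP and hm5C RIP, which hold 53900 rows each, and all 7 had a row in both tables. TET2 is an enzyme that converts methylcytosine into hydroxymethylcytosine (hm5C in RNA), and the experiments asked which RNAs were recovered with TET2 and with an antibody against hm5C in mouse embryonic stem cells. CLIP libraries came from 2 clones of the E14 line whose TET2 carries an HA and His tag (Tet2HA-His), clone 65 and clone 75, each a single clone. Their cells were labelled with the photoreactive nucleoside 4-thiouridine at 500 µM for 4 hours and crosslinked with UVB at 400 mJ/cm2. Each clone gave 2 TET2 CLIP libraries and 2 input libraries. RIP libraries came from untreated cells of strain B6;129, with 2 hm5C RIP libraries and 2 input libraries made with a small RNA kit. No sample is labelled as a pulldown from untagged cells or with a control antibody. Recovery through TET2 or hm5C and background recovery in a pulldown therefore cannot be told apart. All cells were grown in medium with leukemia inhibitory factor, 3 µM CHIR99021, which inhibits GSK3, and 1 µM PD0325901, which inhibits MEK.

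SnoRNAs guide the chemical modification of other RNAs: box C/D snoRNAs direct 2′-O-methylation and box H/ACA snoRNAs direct pseudouridylation, mostly in ribosomal RNA. In mammals most of them are cut out of introns while the host transcript is spliced and trimmed. The spliced exons of many non-coding hosts have little coding potential and are degraded by nonsense-mediated decay, and many hosts start with the pyrimidine tract (5′TOP) known from ribosomal protein genes. By the class of snoRNA they carry, Gas5, Snhg1, Snhg5 and Snhg6 are box C/D hosts, Snhg3 and Snhg8 are box H/ACA hosts, and Snhg12 carries both classes.

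In GRCm38.p6, the assembly of the mm10 build the submitters name, RefSeq annotates all 7 as long non-coding RNA genes. Gas5 lies at chr1:161034601-161038539 on the plus strand and Snhg1 at chr19:8723487-8726326 on the plus strand. Snhg5 lies at chr9:88521052-88522897 on the minus strand, and Snhg6 at chr1:9942025-9944118. Snhg3 (chr4:132351933-132353686, minus strand) and Snhg12 (chr4:132308678-132311024, plus strand) are both on chromosome 4, and Snhg8 lies at chr3:123507552-123508336 on the minus strand. The start regions are shown because the 5′ pyrimidine tract is the sequence feature these genes are known for. Their relation to the CLIP and RIP values was not tested. RefSeq's promoter table gave 7 start sites for 6 of the genes. Each line below runs 5′ to 3′ on the gene's own strand from 50 bases before the annotated start to 20 bases from it on. Capitals mark the longest run of C and T within 20 bases on either side of the start and, where present, the letters TATAA within the 50 bases before it. The windows are chr1:161034551-161034620 and chr1:161035116-161035185 for Gas5, chr19:8723437-8723506 for Snhg1, chr9:88522878-88522947 for Snhg5, chr4:132353667-132353736 for Snhg3, chr3:123508317-123508386 for Snhg8 and chr4:132308628-132308697 for Snhg12.
Gas5, first start: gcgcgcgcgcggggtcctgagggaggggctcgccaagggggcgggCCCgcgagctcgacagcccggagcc
Gas5, second start: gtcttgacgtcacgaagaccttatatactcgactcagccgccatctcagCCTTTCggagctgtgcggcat
Snhg1: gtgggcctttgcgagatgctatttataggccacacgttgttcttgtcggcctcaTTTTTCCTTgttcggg
Snhg5: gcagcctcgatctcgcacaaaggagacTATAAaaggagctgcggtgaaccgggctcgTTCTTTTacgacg
Snhg3: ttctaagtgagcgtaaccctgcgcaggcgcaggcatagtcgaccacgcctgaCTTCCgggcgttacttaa
Snhg8: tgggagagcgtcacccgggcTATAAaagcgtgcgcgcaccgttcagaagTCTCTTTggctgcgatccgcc
Snhg12: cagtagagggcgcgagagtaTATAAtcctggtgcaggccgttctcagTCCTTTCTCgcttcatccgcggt
A run of at least 5 pyrimidines was present at 6 of the 7 starts (85.7%), against 57.5% of the 32851 promoters in the table. The first Gas5 start was the exception, with a longest run of 3, while the second held CCTTTC beginning 1 base before the start. The letters TATAA were present at 3 of the 7 starts, those of Snhg5, Snhg8 and Snhg12 (42.9%), against 4.93% of all promoters. The same letters on the other strand (TTATA) were present at 2, the second Gas5 start and Snhg1 (28.6%, against 2.8%). These matches describe letters in a window and were not tested as sites.

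The count tables limit what can be said of the reads in a host row. RefSeq places 26 snoRNA intervals inside the 7 hosts. They cover 3.53% of the span of Snhg6 and between 7.80% and 23.4% of the other spans. The tables have no row under the name of 16 of these intervals, and of the 16 snoRNA rows that could be tied to the hosts by interval or by name, 15 had 0 counts in all 12 libraries. These include Snora24 inside Snhg8, Snora73a and Snora73b inside Snhg3, Snord22 inside Snhg1 and Snord47 inside Gas5. Among snoRNA rows placed by interval, 10 of 11 inside the 7 hosts were at 0 in every library (90.9%), against 25 of 35 inside other non-coding genes (71.4%) and 35 of 84 inside protein-coding genes (41.7%). Only Snord87, the box C/D snoRNA inside Snhg6, had counts. Whether a read of a host row came from the spliced host, from an intron or from a mature snoRNA therefore cannot be told apart, except for the snoRNA of Snhg6. How the counting used strand is not given in the sources used here. Gas5 overlaps Zbtb37 by 264 bases and Snhg6 overlaps Mcmdc2 by 1582 bases, so that reads there cannot be told apart either.

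Total counts were 221060 to 453944 in the 4 TET2 CLIP libraries against 913002 to 4729463 in their inputs, and 1564014 to 2100187 in hm5C RIP against 4641963 to 4889943 in RIP inputs. The floor of 3 counts corresponded to 6.61 to 13.6 raw CPM (counts scaled to the library total alone) in TET2 CLIP and to at most 3.29 raw CPM in every other library. The series' design text calls the replicates biological, and all pairs differed by more than counting error. All 10 embryonic stem cell markers had counts in each CLIP group, with a summed level of 1637 to 2388 raw CPM over the 4 TET2 CLIP libraries and 1633 to 2766 over the 4 inputs. The 6 fibroblast or feeder markers summed to at most 22.4 raw CPM in CLIP libraries, and the 5 extraembryonic endoderm markers to at most 17.9. The 5 trophoblast markers were at 45.2 to 102 raw CPM in TET2 CLIP and 215 to 451.8 in CLIP inputs, where most of it was Gata3, with Cdx2 at 0 in TET2 CLIP of both clones. Over both clones Gata3 was called lower in TET2 CLIP than in input (log2 -4.06, SE 0.25), as it was within clone 65 (-3.02) and clone 75 (-5.09). Of the 9 embryonic stem cell markers tested, Zfp42 was called higher (log2 0.62, SE 0.15; 0.84 within clone 65) and Dppa5a lower (log2 -0.90, SE 0.24; -1.74 within clone 75). The part of these markers in the hosts' values was not tested.

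Of the 7 hosts, 3 were called higher in TET2 CLIP than in input over both clones: Snhg8, Gas5 and Snhg1. None was called lower than in input (0 by edgeR, 0 at an unadjusted p under 0.05 and 0 by DESeq2). Across all 10334 features tested 8.99% were called higher and 5.83% lower at an adjusted p under 0.05 (edgeR's quasi-likelihood test with Benjamini-Hochberg adjustment). The median log2 change of the 7 hosts was 0.39, against -0.03 for all features. The same 3 hosts were called higher within clone 65, where 8.21% of features were called higher and 2.87% lower, and within clone 75, where 6.22% were called higher and 3.93% lower. Together the 7 hosts took 0.142% to 0.173% of all counts in TET2 CLIP and 0.0985% to 0.131% in the inputs. Each library was made from a whole culture. Its levels do not separate the number of cells containing an RNA from the amount per cell.

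**Figure D1:**
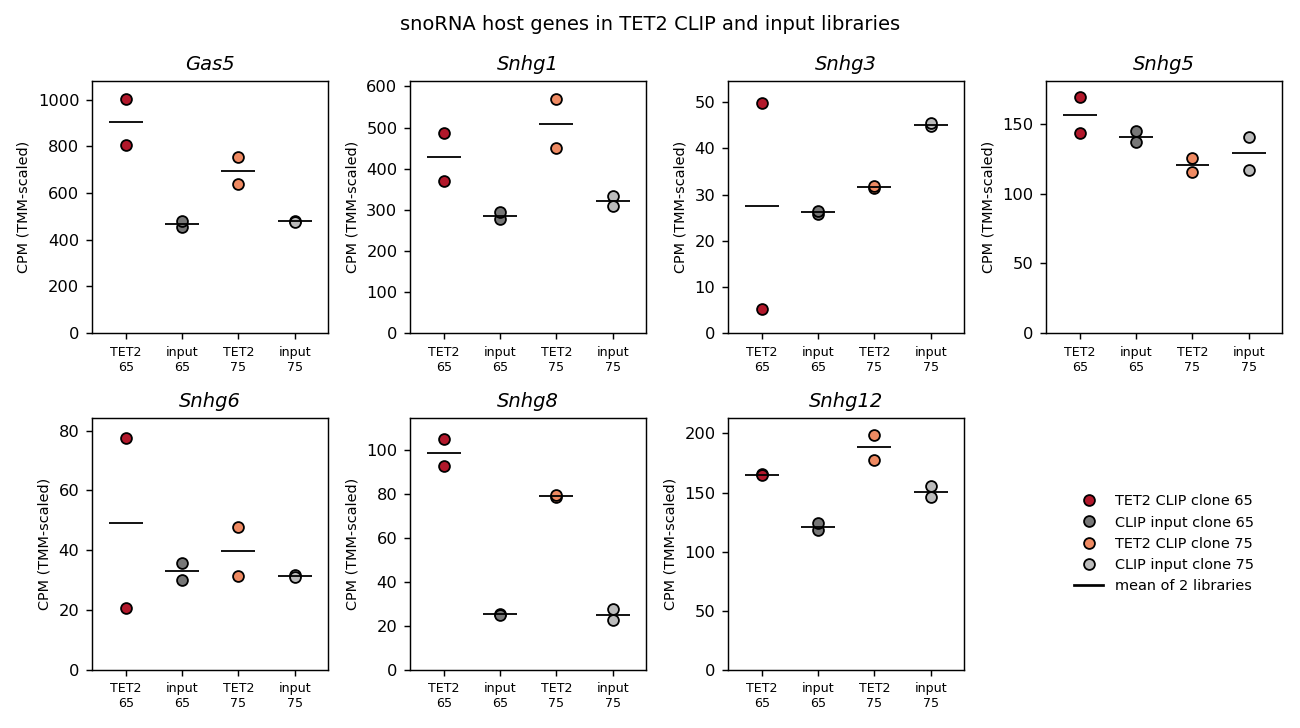
Level of each snoRNA host gene in the 8 CLIP libraries, in CPM (TMM-scaled, linear axes starting at 0). Each point is a library and each bar the mean of 2 libraries, with TET2 CLIP left of the input of the same clone. For Snhg8 the TET2 CLIP libraries sit between 78.8 and 105 CPM, all above the inputs at 22.4 to 27.7 CPM.

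Among the box C/D hosts, Gas5 is named for its accumulation in growth-arrested cells, and its exonic RNA is known in human cells as a decoy that binds the glucocorticoid receptor. On the scale of CPM (counts over the TMM-scaled library total), Gas5 stood at 1001 and 807 in TET2 CLIP of clone 65 against 454 and 482 in its input. In clone 75 Gas5 stood at 754 and 637 CPM in TET2 CLIP against 480.0 and 477 CPM in input. Every TET2 CLIP library was above every input library, and the 4 inputs lay close together (473 ± 12.8 CPM, SD, n = 4) while the TET2 CLIP libraries spread more widely (800 ± 152 CPM, SD, n = 4). Gas5 rose by 0.75 on the log2 scale over both clones (SE 0.12, edgeR adjusted p = 1.5e-05). The rise was 0.95 in clone 65 (SE 0.17, edgeR adjusted p = 0.000101) and 0.55 in clone 75 (SE 0.17, edgeR adjusted p = 0.0309). The clone 65 call was lost with no count filter (log2 0.47, adjusted p = 0.0851). The clone 75 call was lost with no count filter (log2 0.31), with clone 75 fitted alone (log2 0.49, adjusted p = 0.0568) and without any 1 of the 4 inputs or TET2 CLIP replicate 1 of clone 75 (log2 0.41 to 0.55).

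Zbtb37, a zinc finger gene on the opposite strand that overlaps Gas5, was at 59.1 ± 19.8 CPM in TET2 CLIP and 60.3 ± 6.28 CPM in input (SD, n = 4 each). Its log2 change over both clones was 0.03 (SE 0.24, edgeR adjusted p = 0.960) and was not called.

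Snhg1, the host of Snord22 and of a cluster of further box C/D snoRNAs, is a textbook case of a gene whose introns give the functional RNAs while its exons code for no protein. In clone 65 Snhg1 had 487 and 370.2 CPM in TET2 CLIP against 276 and 294 CPM in input. In clone 75 it had 569 and 450.0 CPM in TET2 CLIP against 334 and 309 CPM in input. The TET2 CLIP and input libraries did not overlap in either clone or between clones. Snhg1 rose by 0.64 on the log2 scale over both clones (SE 0.12, edgeR adjusted p = 0.000224), 0.58 in clone 65 (SE 0.18, edgeR adjusted p = 0.0325) and 0.69 in clone 75 (SE 0.16, edgeR adjusted p = 0.00416). With no count filter all 3 calls were lost, with log2 changes of 0.28, 0.11 and 0.45. The clone 65 call was also lost with library size alone as scaling (log2 0.17), with that clone fitted alone (log2 0.50, adjusted p = 0.0510) and without any 1 of the 4 inputs or TET2 CLIP replicate 1 of clone 65 (log2 0.37 to 0.63). The clone 75 call was lost without either input of clone 75 and without TET2 CLIP replicate 1 of clone 75 (log2 0.50 to 0.68).

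Snhg5, the host of the box C/D snoRNAs Snord50a and Snord50b, was not called in any CLIP comparison. It had 144 and 170 CPM in TET2 CLIP of clone 65 against 137 and 145 CPM in input, and 126 and 115 CPM in TET2 CLIP of clone 75 against 117 and 141 CPM in input. The groups overlapped in both clones. The log2 change over both clones was 0.01, with a 95% interval of -0.28 to 0.31.

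Snhg6 was counted less deeply, with 14 and 4 counts in TET2 CLIP of clone 65 and 14 and 12 in TET2 CLIP of clone 75. These counts correspond to 77.4, 20.6, 31.5 and 47.8 CPM, against 30.1, 35.7, 31.6 and 31.1 CPM in the 4 inputs. Of the TET2 CLIP libraries, replicate 1 of clone 65 and replicate 2 of clone 75 were above all inputs, and replicate 2 of clone 65 was below them. The log2 change over both clones was 0.39 (SE 0.30, edgeR adjusted p = 0.445) and turned to -0.22 without replicate 1 of clone 65. Mcmdc2, which overlaps Snhg6, had 4 to 7 counts in each TET2 CLIP library, and its log2 change over both clones was 0.57 (SE 0.40, edgeR adjusted p = 0.383).

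Snord87 allowed the host and its snoRNA to be read apart. Snord87 had 1, 1, 3 and 3 counts in the 4 TET2 CLIP libraries, all at or below the floor of 3, against 45, 84, 12 and 36 counts in their inputs. Its share of the summed Snhg6 and Snord87 counts was 6.67% to 20% in TET2 CLIP and 30.1% to 35.6% in input, and the 2 ranges did not overlap. The log2 change of Snord87 was -1.21 (SE 0.56, edgeR adjusted p = 0.159), which was not called. With Snord87 counts added to those of Snhg6, a choice made after seeing the data, the log2 change was 0.05 over both clones (SE 0.27, edgeR adjusted p = 0.939).

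Snhg8, the host of the box H/ACA snoRNA Snora24, had the largest rise of the 7. It stood at 105 and 92.6 CPM in TET2 CLIP of clone 65 against 25.5 and 24.9 CPM in input. In clone 75 it stood at 78.8 and 79.6 CPM in TET2 CLIP against 22.4 and 27.7 CPM in input. The TET2 CLIP libraries were well apart from the inputs in both clones, and the means of the inputs differed by less than the spread between replicates (25.1 ± 3.76 CPM in clone 75 and 25.2 ± 0.398 CPM in clone 65, SD, n = 2 each). The log2 change was 1.78 over both clones (SE 0.23, edgeR adjusted p = 3.54e-07), with a 95% interval of 1.33 to 2.23. It was 1.97 in clone 65 (SE 0.34, edgeR adjusted p = 5.22e-05) and 1.59 in clone 75 (SE 0.31, edgeR adjusted p = 0.000436). At 18 to 35 counts per TET2 CLIP library it rested on few reads, yet the 3 calls held under every alternative run. Leaving out each of the 8 libraries gave log2 changes of 1.68 to 1.89 over both clones. Of all 10334 features tested, 94.9% had a log2 change no larger than that of Snhg8, against 86.9% for Gas5 and 84.5% for Snhg1.

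Snhg3 hosts Snora73a and Snora73b, box H/ACA snoRNAs known for a part in the cleavage of the ribosomal RNA precursor. It had 9 and 1 counts in TET2 CLIP of clone 65 (49.8 and 5.14 CPM) against 25.8 and 26.6 CPM in input. In clone 75 it had 14 and 8 counts in TET2 CLIP (31.5 and 31.9 CPM) against 44.8 and 45.4 CPM in input. The clone 65 libraries lay on both sides of their inputs, while both clone 75 libraries were below theirs. No change was called, with a log2 change of -0.25 over both clones (SE 0.34, edgeR adjusted p = 0.699) and -0.51 in clone 75 (SE 0.40, edgeR adjusted p = 0.491). Leaving out 1 library at a time gave values of -1.43 to 0.15 over both clones, and a difference was not detectable at this depth.

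Snhg12 carries the box H/ACA snoRNAs Snora16a, Snora44 and Snora61 and the box C/D snoRNA Snord99. It stood at 166 and 165 CPM in TET2 CLIP of clone 65 against 118 and 124 CPM in input, and at 178 and 199 CPM in TET2 CLIP of clone 75 against 156 and 146 CPM in input. All 4 TET2 CLIP libraries were above all 4 inputs. The log2 change of 0.38 over both clones (SE 0.14, 95% interval 0.11 to 0.65, unadjusted p = 0.0106) did not pass the adjusted threshold (edgeR adjusted p = 0.0652).

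**Figure D2:**
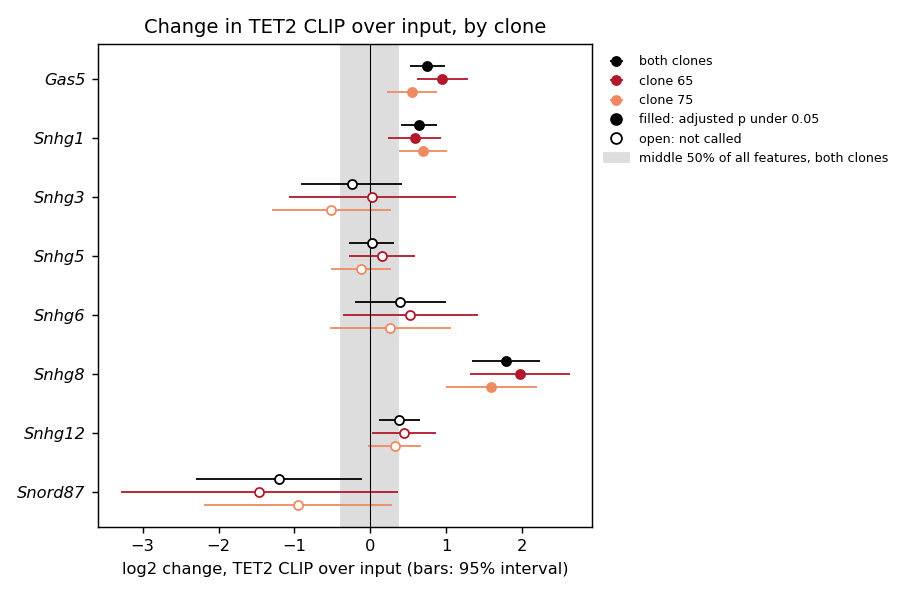
Log2 change of TET2 CLIP over input for the 7 snoRNA host genes and Snord87, over both clones and in each clone (points, with 95% intervals as bars). Filled points passed an adjusted p of 0.05, open points did not, and the grey band holds the middle 50% of all features over both clones. Snhg8 lies farthest to the right, at 1.78 over both clones, and Snord87 farthest to the left, at -1.21.

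Whether the 2 clones differed was tested as the difference of their log2 changes, clone 75 minus clone 65. None of the 7 hosts was called, where 2.54% of all features were called in either direction. No host passed an unadjusted p of 0.05 and none was called by DESeq2. The 7 differences ran from -0.54 (Snhg3) to 0.11 (Snhg1). The 95% interval of the difference was -0.86 to 0.07 for Gas5, -1.20 to 0.45 for Snhg8 and -0.36 to 0.58 for Snhg1, so that differences of these sizes remained possible at this depth. With library size alone as scaling the median difference of all features was 0.60, compared with 0.02, and the differences of Gas5 and Snhg8 became 0.19 and 0.20.

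The inputs measure the hosts' level in the 2 clones without TET2 recovery. Of the 7, only Snhg3 was called higher in the input of clone 75 than in that of clone 65, where 5% of all features were called higher and 1.9% lower. Snhg3 averaged 45.1 ± 0.423 CPM in clone 75 input and 26.2 ± 0.547 CPM in clone 65 input (SD, n = 2 each), and the libraries did not overlap. The log2 change was 0.78 (SE 0.23, edgeR adjusted p = 0.0329). The call was lost with DESeq2 (log2 0.79, adjusted p = 0.176), with no count filter (0.67, adjusted p = 0.127), with library size alone (0.43, adjusted p = 0.208) and without any 1 of the 4 inputs (0.77 to 0.81). Snhg12 averaged 151 ± 6.89 CPM in clone 75 input and 121 ± 3.99 CPM in clone 65 input (SD, n = 2 each), a log2 change of 0.30 that was not called (SE 0.12, edgeR adjusted p = 0.182). The remaining 5 hosts had log2 changes between -0.09 and 0.16. Library size alone moved the median of all features to -0.34, and under it Snhg5 was called lower in clone 75 (log2 -0.45, adjusted p = 0.0432).

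Some cell type markers also differed between the inputs of the 2 clones. The 5 trophoblast markers summed to 385.5 to 451.8 raw CPM in clone 75 input and 215 to 269.6 in clone 65 input. Only 2 of them were tested. Gata3, a transcription factor of trophoblast, was called higher in clone 75 (log2 1.35, SE 0.13, edgeR adjusted p = 2.46e-08). It averaged 442 CPM in clone 75 input and 175 CPM in clone 65 input. The other marker tested had a log2 change of -0.22 and was not called, so the list did not differ as a class. The embryonic stem cell markers summed to 1633 to 1852 raw CPM in clone 75 input and 2515 to 2766 in clone 65 input. Both marker sums are in raw CPM, and with library size alone the median log2 change of all features between these inputs was -0.34. On the TMM scale the 9 embryonic stem cell markers tested had a median log2 change of -0.22, from -0.67 to 0.17. Among them 2 were called lower in clone 75, the Nodal co-receptor gene Tdgf1 (log2 -0.67, SE 0.13) and Dppa5a (log2 -0.61, SE 0.15). The part of these markers in the hosts' input levels was not tested.

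Across the 8 CLIP libraries the 7 hosts did not all vary together. Over their 21 pairs, Pearson's r of log2 CPM ran from -0.66 (Snhg3 with Snhg5) to 0.95 (Gas5 with Snhg8), with a median of 0.28. These r values are descriptions over 8 libraries that share the split into TET2 CLIP and input. Those of Snhg3 include 1 count in TET2 CLIP replicate 2 of clone 65, below the floor of 3. By the same measure, the features most like Gas5 were Gm23721 (r = 0.990) and Ghdc (r = 0.990), and those most like Snhg8 were a glutamate tRNA gene (chr3.tRNA754-GluTTC, r = 0.997) and Ros1 (r = 0.995). For Snhg1 they were Gm10033 (r = 0.980) and Rc3h2 (r = 0.969). The features closest to the other hosts had r between 0.965 and 0.983: Spats2l and Zc3h7a for Snhg3, Fam98b and Mpp1 for Snhg5, Chmp1a and Donson for Snhg6, and Rap2b and 2010111I01Rik for Snhg12.

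Other genes around the same pathway were counted for comparison. Of 14 further non-coding snoRNA hosts 11 had a row and 8 were tested in CLIP, of which 1 was called higher and 1 lower over both clones (median log2 0.12). Dancr, which represses differentiation in human progenitor cells, averaged 252 ± 43.5 CPM in TET2 CLIP of clone 65 against 143 ± 7.38 CPM in input, and 173 ± 13.5 CPM in TET2 CLIP of clone 75 against 140.2 ± 4.92 CPM in input (SD, n = 2 each), a log2 rise of 0.58 over both clones (SE 0.13, edgeR adjusted p = 0.00186). Snhg17 fell by 0.53 on the log2 scale over both clones (SE 0.14, edgeR adjusted p = 0.0098). It had 132 ± 30.9 CPM in TET2 CLIP of clone 65 against 273 ± 2.33 CPM in input, but 270.1 ± 15.9 CPM in TET2 CLIP of clone 75 against 281 ± 45.1 CPM in input (SD, n = 2 each). Its difference of clones was 1.02 (SE 0.29, edgeR adjusted p = 0.0544).

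Of 27 protein-coding snoRNA hosts 26 were tested, with 3 higher and 4 lower over both clones (median log2 0.09). The 3 with the smallest p were all lower: Eef2, the elongation factor that moves the ribosome along the mRNA (log2 -0.82, SE 0.14), Rack1, a scaffold protein of the small ribosomal subunit (log2 -0.64, SE 0.12), and Rps3, a small-subunit ribosomal protein (log2 -0.63, SE 0.14). These 3 also had the smallest p in clone 75, where 3 of the 26 were lower (log2 -0.93, -0.83 and -0.56) and none was higher (edgeR, 0 at an unadjusted p under 0.05, 0 by DESeq2). In clone 65, 5 were higher and 3 lower, and the 3 with the smallest p were higher: Rpl23a (log2 2.85, SE 0.59) and Rpl12 (log2 0.76, SE 0.17), ribosomal protein genes whose reads may be shared with near-identical copies, and Tcp1, a subunit of the chaperonin that folds actin and tubulin (log2 1.06, SE 0.26). The difference of clones was called for none of the 26 by edgeR, while 6 were lower at an unadjusted p under 0.05 and 2 by DESeq2. Of the 8 core proteins of snoRNA particles none was called by edgeR or by DESeq2, while at an unadjusted p under 0.05 there was 1 higher and 1 lower. Of 10 nonsense-mediated decay factors Smg5 alone was called (log2 -0.42, SE 0.14, edgeR adjusted p = 0.0363).

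The hosts' level in the RIP inputs differed from that in the CLIP inputs. Gas5 took 6522 raw CPM in RIP input (mean of 2 libraries) and 472 in CLIP input (mean of 4), a ratio of 13.8. The ratio was 5.37 for Snhg5, 4.07 for Snhg12, 2.66 for Snhg8 and 2.19 for Snhg1. It was 0.0162 for Snhg6. For Snhg3 it was 0.640, which rests on unlike libraries: RIP input replicate 1 had 9 counts (1.94 raw CPM) and replicate 2 had 206 (42.1 raw CPM), below and above the mean of 34.4 raw CPM in CLIP input, so that its side of 1 depends on the replicate. Among 8641 protein-coding genes with at least 10 raw CPM in CLIP input the median ratio was 0.0132, and 39 of them (0.451%) exceeded 1. The 11 other non-coding hosts with a row were all below 1, the highest being Zfas1 at 0.744. Of these, Snhg9, Snhg10 and Snhg18 were near the floor in CLIP input (0.359, 1.31 and 0.382 raw CPM), so that their ratios say little. Protein-coding snoRNA hosts were also higher in RIP input as a sum. The 27 listed took 27280 to 31820 raw CPM in RIP input, against 6171 to 6607 in clone 65 input and 4691 to 5298 in clone 75 input. Single genes of that list lay on both sides, with Rpl7a at 678 in RIP input against 66.0 in CLIP input and Rpl12 at 8.82 against 256. In each RIP input Snord87 made up over 99% of the summed Snhg6 and Snord87 counts (6255 and 4442 counts of Snord87 against 2 and 3 of Snhg6). The 2 tables were counted separately, and strain, 4-thiouridine labelling, crosslinking and library kit differ together between them and cannot be told apart.

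**Figure D3:**
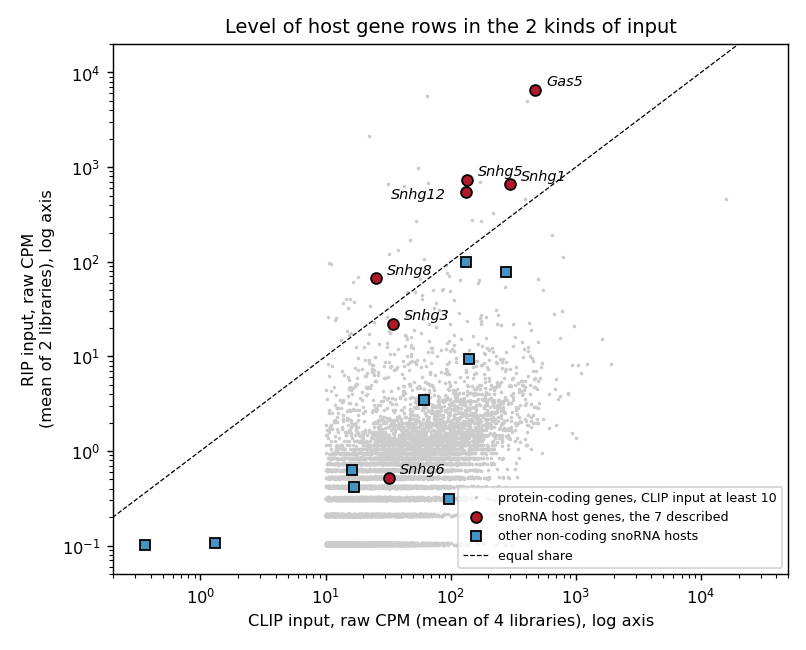
Raw CPM in RIP input (vertical, mean of 2 libraries) against CLIP input (horizontal, mean of 4 libraries), both on log axes, for the 7 snoRNA host genes, other non-coding hosts and protein-coding genes with at least 10 raw CPM in CLIP input. Genes at 0 in RIP input (636 of the protein-coding genes and 2 of the other hosts) are not drawn. Gas5, Snhg1, Snhg5, Snhg8 and Snhg12 lie above the dashed line of equal share, and Snhg6 lies near the bottom at 0.522 raw CPM.

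In hm5C RIP, 5 of the 7 hosts were lower than in RIP input: Gas5, Snhg1, Snhg5, Snhg8 and Snhg12. Of all 2081 features tested 18.9% were called lower and 33% higher. None of the hosts was called higher (edgeR, 0 at an unadjusted p under 0.05, 0 by DESeq2), Snhg3 was not called and Snhg6 was too scarce to test. The hosts' median log2 change over the 6 tested was -2.22, against 0.15 for all features. Together the 7 took 0.226% and 0.172% of all counts in the 2 hm5C RIP libraries against 0.933% and 0.776% in RIP input. A single row, Acsl6, held 55.2% and 60.6% of all counts in hm5C RIP against 0.255% and 0.167% in RIP input. It thereby lowers the share and the raw CPM of every other row in hm5C RIP. The 6 fibroblast or feeder markers summed to 38.4 to 44.8 raw CPM in hm5C RIP, with Thy1 and Postn at 0, against 2.86 to 3.23 in RIP input, with Col1a1, Acta2 and Postn at 0. The 10 embryonic stem cell markers summed to 16.0 to 26.2 raw CPM in hm5C RIP, with Zfp42 and Dnmt3l at 0, against 36.8 to 42.1 in RIP input. Only 1 fibroblast or feeder marker was tested, the collagen gene Col1a2, which was called higher in hm5C RIP (log2 3.56, SE 0.38). Col1a2 averaged 33.8 ± 1.47 CPM in hm5C RIP and 2.85 ± 0.422 CPM in RIP input (SD, n = 2 each). Among the 6 embryonic stem cell markers tested, log2 changes ran from -2.38 to 0.13. The stem cell transcription factor genes Tfcp2l1 (log2 -2.38, SE 0.55) and Esrrb (log2 -1.80, SE 0.62) were called lower. The part of both lists in the hosts' values was not tested.

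Gas5 stood at 1552 and 960.0 CPM in hm5C RIP against 8056 and 6116 CPM in RIP input. Snhg1 had 214 and 103 CPM in hm5C RIP against 775 and 649 CPM in RIP input, and Snhg5 had 200.4 and 129 CPM in hm5C RIP against 951 and 639.6 CPM in RIP input. For these 3 box C/D hosts both hm5C RIP libraries were far below both inputs. All 3 were called lower, Gas5 at -2.50 on the log2 scale (SE 0.34, edgeR adjusted p = 0.000873), Snhg1 at -2.17 (SE 0.38, edgeR adjusted p = 0.0021) and Snhg5 at -2.28 (SE 0.34, edgeR adjusted p = 0.00117). Snhg6 had no counts in hm5C RIP and 2 and 3 counts in RIP input, all at or under the floor of 3 counts, so that no change could be read. Its snoRNA Snord87 had 161 and 193 counts in hm5C RIP (105 and 80.0 CPM) against 6255 and 4442 in RIP input (1515 and 945 CPM) and fell by 3.73 (SE 0.36, edgeR adjusted p = 0.000274).

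Snhg8, the box H/ACA host that rose most in TET2 CLIP, had 19 and 30 counts in hm5C RIP against 281 and 359 in RIP input. On the CPM scale it was at 12.4 in both hm5C RIP libraries against 68.1 and 76.4 in RIP input, and it fell by 2.53 (SE 0.28, edgeR adjusted p = 0.000436). Snhg3 had 11 and 13 counts in hm5C RIP (7.21 and 5.39 CPM) against 9 and 206 counts in RIP input (2.18 and 43.8 CPM). Its 2 inputs lay on either side of the hm5C RIP libraries, and the log2 change of -1.90 (SE 1.10, edgeR adjusted p = 0.190) turned to 1.38 without input replicate 2 and to -2.93, then called (adjusted p = 0.00812), without input replicate 1.

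Snhg12 was the least lowered of the 5. It had 332 and 290.3 CPM in hm5C RIP against 639 and 542 CPM in RIP input, with no overlap, and fell by 0.92 (SE 0.26, edgeR adjusted p = 0.0188). Without input replicate 1 the adjusted p was 0.0510 at a log2 change of -0.93. The 95% interval of its log2 change, -1.44 to -0.41, stands beside -3.17 to -1.83 for Gas5, -2.95 to -1.60 for Snhg5 and -3.09 to -1.98 for Snhg8. The difference between genes was not tested.

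**Figure D4:**
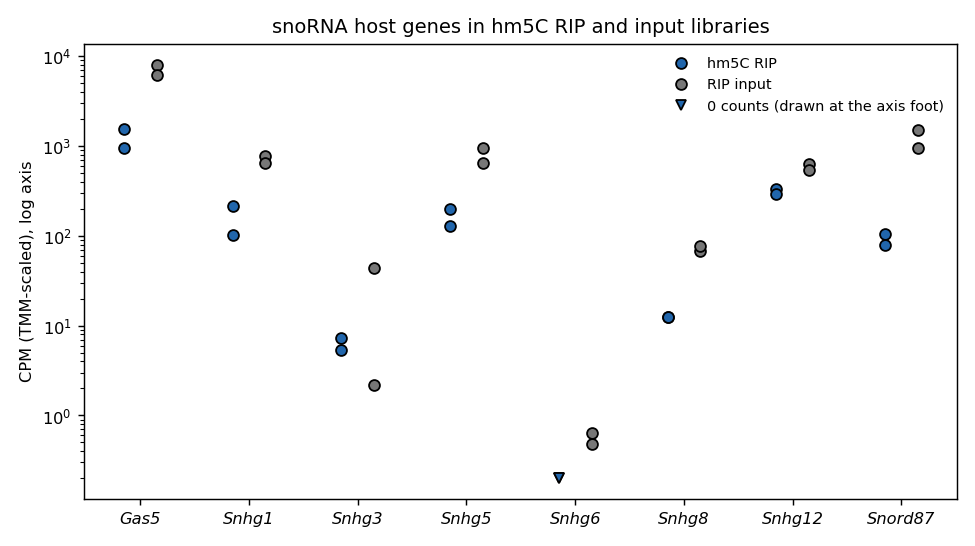
Level of the 7 snoRNA host genes and Snord87 in hm5C RIP (blue, left) and RIP input (grey, right), in CPM on a log axis, with each point a library. Both hm5C RIP libraries lie below both inputs for Gas5, Snhg1, Snhg5, Snhg8, Snhg12 and Snord87, while the 2 inputs of Snhg3 lie on either side of its hm5C RIP libraries. The 0 counts of Snhg6 in hm5C RIP are drawn as a triangle at the axis foot.

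Because the Acsl6 row, of a gene that encodes a long-chain acyl-CoA synthetase, held 55.2% and 60.6% of all counts in hm5C RIP, the scaling was varied. Without the Acsl6 row and with library sizes as the only scaling, the median log2 change of all features was 1.65, compared with 0.15 in the fit as first made. Gas5 (-1.04), Snhg1 (-0.74), Snhg5 (-0.81) and Snhg8 (-1.04) were still called lower. Snhg12 turned to 0.56 and was called higher (adjusted p = 0.0451). Since a scaling moves all features together, the distance of a host from the median of all features (-1.07 for Snhg12 and -2.65 for Gas5 in the fit as first made) hardly changes with the scaling by construction and is no check of it. The part of this row in the hosts' values was not tested beyond these scalings.

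**Figure D5:**
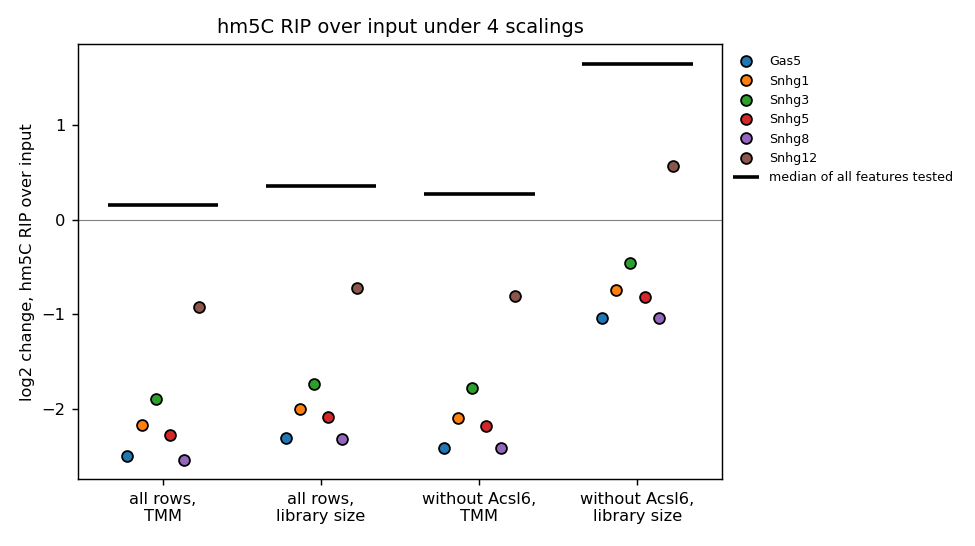
Log2 change of hm5C RIP over input for the 6 snoRNA host genes tested (points) and the median of all features (black bars), under TMM or library size alone, with and without the Acsl6 row. Under the last scaling the median of all features is 1.65 and Snhg12 is above 0 at 0.56. Points and median bar move together from scaling to scaling by construction.

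Most snoRNA rows tested were lower in hm5C RIP, and no other host tested was called higher. Of 54 snoRNA and scaRNA rows tested 49 were called lower and none higher, with a median log2 change of -2.00. None of the tied snoRNAs of the 7 hosts is among them except Snord87. Of 4 other non-coding hosts tested 2 were lower, Zfas1 (17.8 ± 3.51 CPM in hm5C RIP against 108 ± 14.9 CPM in RIP input, log2 -2.61, SE 0.29) and Snhg17 (13.3 ± 7.10 CPM in hm5C RIP against 84.2 ± 35.8 CPM in RIP input, log2 -2.71, SE 0.46), each with n = 2. The other two were not called, Dancr (log2 0.17, SE 0.41, edgeR adjusted p = 0.764) and Snhg15 (log2 -0.47, SE 0.70, edgeR adjusted p = 0.619). Of 22 protein-coding hosts tested 15 were lower, none was higher (edgeR, 0 at an unadjusted p under 0.05, 0 by DESeq2) and 7 were not called (median log2 -1.90 over the 22). All 22 log2 changes were below 0, from -2.89 to -0.28. The 15 include the ribosomal protein genes Rpl21 (log2 -2.89, SE 0.33), Rps12 (log2 -2.54, SE 0.32) and Rpl5 (log2 -2.51, SE 0.30). Nop56, a core protein of box C/D particles that itself hosts snoRNAs, fell by 2.11 (SE 0.31, edgeR adjusted p = 0.00111). The rows of Snhg8, Gas5 and Snhg1 were thus called higher in TET2 CLIP and lower in hm5C RIP, in separate cells, library kits and fits. Whether these rows hold the same RNA in both experiments (spliced host, intron or mature snoRNA) cannot be told from the counts.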

How the data were processed

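The 8 CLIP and 4 RIP libraries of 24 in the series were analysed, grouped by the sample labels. The 12 small RNA libraries were not used here. The values deposited by the authors were raw read counts per gene, whole numbers with differing column sums. Per the submitters' processing notes, the tools were STAR 2.5.3a, Bowtie2 2.2.6, cutadapt and UMI-tools, and the build was mm10. What each tool did, how reads were counted, the gene annotation and the use of strand are not given in the sources used here. Per the labels' protocols, CLIP libraries were made with a custom eCLIP protocol and RIP libraries with a TruSeq small RNA kit.

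Counts were tested with edgeR 4.0.16 in R 4.3.3 (TMM factors, filterByExpr by group, robust quasi-likelihood F-test, Benjamini-Hochberg adjustment over all features tested, threshold 0.05), CLIP in 1 fit over 8 libraries and RIP over 4. This filter drops features with too few counts for the smallest group's number of libraries, and all 7 hosts passed it in CLIP and 6 in RIP. CPM are counts over the TMM-scaled library size and raw CPM counts over the library total, with SD over libraries, and 95% intervals are from the normal distribution and the fit's standard error. The floor is 3 counts, and intervals and floors cover counting error and replicate spread only as far as the fit models them. The fits were tested on simulated counts with known changes, drawn with the same spread for every feature. That run checked the code and not the calls reported here. Each result was recomputed with the Wald test of DESeq2 1.42.0, with size factors of the DESeq2 kind, with unscaled library sizes, without the filter, with a replicate block, for each clone alone, without each library in turn and without the Acsl6 row. Adding Snord87 to Snhg6 was chosen after seeing the data.

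Positions, gene types and promoter sequences came from RefSeq for GRCm38.p6, and no genome sequence was used. Named were all 7 hosts, nested snoRNAs with over 3 counts in any library, up to 3 called genes with the smallest p of each list per comparison, and the 2 features most correlated with each host over the 8 CLIP libraries. Nested snoRNAs at 0, overlapping genes and Acsl6 were named beyond that rule, and not every overlapping gene is reported here. The 7 hosts and the lists were chosen with earlier results of these data known.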

Additional observations from a re-analysis of the deposited data

How the results depend on the processing

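The TET2 CLIP calls of Snhg8 and the hm5C RIP calls of Gas5, Snhg1, Snhg5 and Snhg8 held under every alternative run. Over both clones, 41 of 42 recomputed values of the 3 called hosts kept direction and call, and 7 of 56 values of the other hosts changed sign without being called. Counts of 1 to 35 per TET2 CLIP library limited Snhg3, Snhg6 and Snhg8, and apart from Snord87 inside Snhg6 no fit can part host from nested snoRNA reads. For all values below that changed, the cause was not tested.

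With library size alone, signs turned for Snhg5 (-0.10 over both clones, -0.26 in clone 65, 0.050 in clone 75) and Snhg3 (-0.39 in clone 65). The differences of clones became 0.19 for Gas5, 0.035 for Snhg3, 0.31 for Snhg5, 0.31 for Snhg6, 0.20 for Snhg8 and 0.45 for Snhg12. In the input comparison, clone 75 over clone 65, Gas5 became -0.34, Snhg1 -0.20, Snhg8 -0.30 and Snhg12 -0.057, with 0 hosts called higher and 1 lower. With no count filter, Snhg5 became -0.34 over both clones, and in clone 65 Snhg3, Snhg5 and Snhg12 became -0.45, -0.32 and -0.027. The same setting left 1 host called higher in each clone, a difference of clones of 0.10 for Snhg12, and input changes of -0.094 for Gas5 and -0.056 for Snhg8. No host was called in the inputs with no count filter or with DESeq2 (0 each). With clone 65 fitted alone Snhg3 became -0.052, and with Snord87 added Snhg6 became -0.058 in clone 75. With Acsl6 left out and unscaled library sizes, Snhg12 turned to 0.56 in hm5C RIP, the 1 host called higher.

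Leaving out 1 library at a time gave these ranges. Over both clones they were -1.43 to 0.15 for Snhg3, -0.11 to 0.10 for Snhg5 and -0.22 to 0.68 for Snhg6. In clone 65 they were -2.34 to 0.86 for Snhg3, -0.038 to 0.26 for Snhg5 and -0.70 to 1.15 for Snhg6. In clone 75 Snhg5 ran from -0.27 to 0.056, and 1 to 3 hosts were called higher. Differences of clones ran from -0.082 to 0.33 for Snhg1, -1.43 to 1.82 for Snhg3 and -0.94 to 0.96 for Snhg6. In the inputs Gas5 ran from -0.0098 to 0.075, Snhg6 from -0.19 to 0.055 and Snhg8 from -0.16 to 0.13, with 0 to 1 hosts called higher. In hm5C RIP, Snhg3 ran from -2.93 to 1.38.

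Samples with the same replicate number did not deviate together (correlations of -0.0078 in clone 65, 0.018 in clone 75 and 0.022 in RIP), so the numbers do not pair them. With the replicate block, the clone 65 call of Snhg1 (log2 0.58, adjusted p = 0.0752) and the clone 75 call of Gas5 (log2 0.54, adjusted p = 0.111) were lost, Snhg3 became -0.029 in clone 65, and calls over both clones and in hm5C RIP held. Over both clones the block called 772 features higher and 431 lower, against 929 and 602 without it.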
